A study of Mus musculus with 7 samples.

Results

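The genes described here are 10 classic targets of the transcription factor NRF2 outside the glutathione transferases: Gclc, Gclm, Slc7a11, Gsr, Txnrd1, Srxn1, G6pdx, Nqo1, Cbr3 and Hmox1. They and the lists below were chosen by symbol, with earlier results of these data known. All 10 were found among the 37620 Ensembl genes of the counts table. Whole-liver RNA of C57BL/6 mice was sequenced after 30 weeks on a Western diet, in 4 libraries from animals whose total bile acids were high (H-TBA) and 3 from animals whose total was low (L-TBA). All mice shared the strain and the diet, the labels name no transgene, deletion or drug, and they give neither age nor sex. The comparison asks what differs in the liver between mice with high and low total bile acids on the same diet. It does not show which difference came first. Whether each library came from its own animal is not in the labels. The spread that the p-values rest on is that of these libraries and may be technical.

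NRF2, encoded by Nfe2l2, is held in the cytoplasm by KEAP1, which hands it to a ubiquitin ligase built on CUL3 and RBX1 for destruction. Oxidants and electrophiles modify KEAP1, and NRF2 then enters the nucleus, pairs with a small MAF protein and binds antioxidant response elements, sites at which BACH1 acts as a repressor. In liver its targets make glutathione, recycle thioredoxin and glutathione with NADPH, and clear quinones, carbonyls and heme.

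The libraries held 9996990 to 12152613 counts, and the 10 genes together gave 8714 to 14244 counts per library. On the first principal component of all tested genes, which held 64.7% of the variance, H-TBA 1 lay at -10.7, between H-TBA 2 to 4 (-43.5 to -34.6) and L-TBA (36.8 to 45.2). Of 5 matched hepatocyte markers, Apob and Ttr were lower and Cps1 was higher in H-TBA, and their summed level was 53006 to 60418 CPM in H-TBA and 58054 to 66891 CPM in L-TBA. CPM are counts scaled to library size after TMM.

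The NRF2 targets did not move together. Slc7a11, Cbr3 and Nqo1 were higher in H-TBA, Gclc, Hmox1 and Srxn1 were lower, and Gclm, Gsr, Txnrd1 and G6pdx did not pass the test. Of the 10 genes, 3 rose and 3 fell at an adjusted p of 0.05 by edgeR's quasi-likelihood test, where 23.9% of all tested genes were called, 13.1% higher and 10.7% lower. The groups did not overlap in 6 of the 10 genes, against 33.5% of all tested genes, with H-TBA above in 3 (17.2% of all) and below in 3 (16.3% of all). The median log2 fold change, H-TBA over L-TBA, was -0.06 over the 10 genes and 0.00 over all 15249 tested genes, and 5 of the 10 lay on each side of zero. The calls of Slc7a11, Cbr3, Gclc and Hmox1 were made under each of 17 alternative analyses, while those of Nqo1 and Srxn1 were made in 9 of 17 each.

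**Figure D1:**
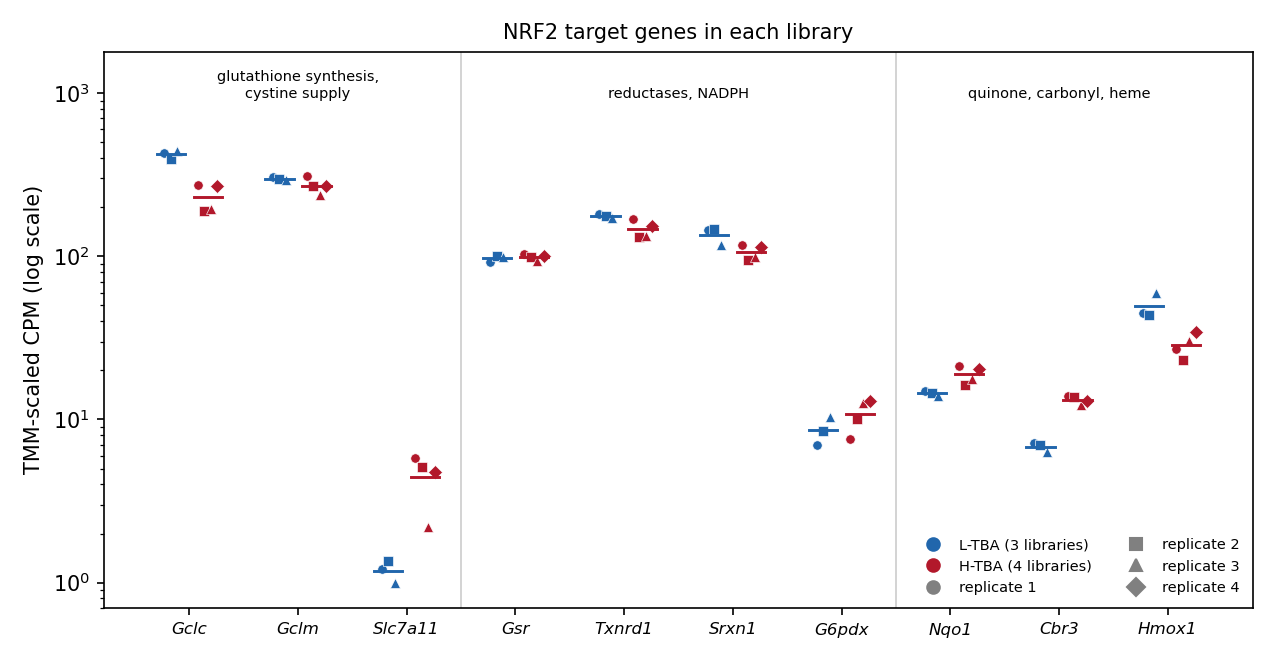
Level of each NRF2 target in every library, in TMM-scaled CPM on a log axis, grouped by role; blue points are the 3 L-TBA libraries, red points the 4 H-TBA libraries, marker shape gives the replicate and bars are group means. Slc7a11, Nqo1 and Cbr3 lie higher in all H-TBA libraries than in any L-TBA library, and Gclc, Txnrd1 and Hmox1 lie lower.

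Per kilobase of exon, the 10 genes spanned a wide range. In L-TBA the order ran from Gclc (112 ± 6.12 CPM per kb, SD, n = 3) through Srxn1 (48.2 ± 5.90), Gclm (47.5 ± 1.09), Gsr (35.2 ± 1.63), Hmox1 (28.2 ± 5.17), Txnrd1 (24.9 ± 0.672), Nqo1 (9.34 ± 0.277), Cbr3 (5.44 ± 0.363) and G6pdx (2.81 ± 0.556) to Slc7a11 (0.0852 ± 0.0125). Srxn1 and Gclm, and Hmox1 and Txnrd1, differed by less than the larger SD of the pair. In H-TBA Gclc was still first, at 61.5 ± 11.8 CPM per kb (SD, n = 4), and Gclm (43.1 ± 4.87), Srxn1 (37.8 ± 3.95) and Gsr (36.0 ± 1.45) followed. Txnrd1 (20.7 ± 2.51), Hmox1 (16.4 ± 2.83), Nqo1 (12.2 ± 1.52), Cbr3 (10.6 ± 0.632), G6pdx (3.52 ± 0.828) and Slc7a11 (0.320 ± 0.113) completed the order. In that group only Srxn1 and Gsr, among neighbours in the order down to Cbr3, differed by less than the larger SD of the pair. Lengths are those of all annotated exons of a gene joined, so a gene with long alternative exons, such as Slc7a11 at 13922 bases, is placed too low on this scale. The SDs do not hold this uncertainty. The first place of Gclc (3766 bases) in H-TBA rests on it, since before division by length Gclm (6291 bases) was at 271 ± 30.6 CPM and Gclc at 232 ± 44.3 CPM.

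RefSeq promoter windows (GRCm38.p6, 250 bases before to 50 bases after a start site) were at hand for Gclm, Slc7a11, Txnrd1, Srxn1, G6pdx, Nqo1 and Cbr3, and those with a match are shown because they hold the letters of the NRF2 site. The antioxidant response element core TGACNNNGC was searched on both strands, as was TGANTCA, the related site of AP-1 and NF-E2 family factors, and the 2 patterns share no match in these windows. The core was found in 4 of these 7 genes, Gclm, Txnrd1, Srxn1 and G6pdx, and in 14% of all genes with such a window (12.4% of windows). TGANTCA was found in Srxn1 alone of the 7 and in 8.97% of all genes. The windows of Slc7a11, Nqo1 and Cbr3, the 3 genes that rose, held neither pattern. Sequence outside the windows was not searched, so these genes are not shown to lack a site. No window was at hand for Gclc, Gsr and Hmox1, so the genes that rose and those that fell cannot be contrasted. Capitals mark the matches, and each sequence reads 5′ to 3′ on the strand of its gene, so that a core on the opposite strand appears as its reverse complement.
Gclm, chr3:122245383-122245471, plus strand, match ending 125 bases before the start site: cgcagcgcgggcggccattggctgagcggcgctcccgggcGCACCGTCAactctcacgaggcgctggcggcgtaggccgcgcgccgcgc
Txnrd1, chr10:82859074-82859162, plus strand, match ending 83 bases before the second of its 3 start sites: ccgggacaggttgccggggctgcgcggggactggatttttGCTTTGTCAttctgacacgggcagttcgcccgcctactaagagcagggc
G6pdx, chrX:74428889-74428977, minus strand, match ending 48 bases before the start site: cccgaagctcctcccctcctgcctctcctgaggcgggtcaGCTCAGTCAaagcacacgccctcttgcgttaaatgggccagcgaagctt
Srxn1, chr2:152105382-152105523, plus strand, 2 matches to TGANTCA ending 95 and 38 bases before the start site: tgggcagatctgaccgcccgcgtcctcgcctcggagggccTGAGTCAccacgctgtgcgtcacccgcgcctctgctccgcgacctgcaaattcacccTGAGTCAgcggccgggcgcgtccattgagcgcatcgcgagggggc
Srxn1, chr2:152105542-152105570, plus strand, core beginning 28 bases after the start site: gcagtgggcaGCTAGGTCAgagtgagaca

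Glutathione synthesis begins with glutamate-cysteine ligase, whose catalytic subunit is encoded by Gclc (ENSMUSG00000032350) and whose modifier subunit by Gclm (ENSMUSG00000028124). Gclc stood at 431, 396 and 439 CPM in the L-TBA libraries and at 272, 190.1, 196 and 268 CPM in the H-TBA libraries. The groups were well apart, and H-TBA 1 and 4 were the higher H-TBA libraries. Gclc fell from 422 ± 23.0 (SD, n = 3) to 232 ± 44.3 CPM (SD, n = 4), which is -0.87 ± 0.14 (SE) on the log2 scale (adjusted p = 0.00135). Over the alternatives its adjusted p lay between 4.66e-08 and 0.00931. Gclm stood at 307, 296 and 294 CPM in L-TBA and at 311, 268, 236 and 269 CPM in H-TBA. Its groups overlapped through H-TBA 1, and its log2 fold change of -0.14 ± 0.10 did not pass (adjusted p = 0.358). Some Gclm counts are uncertain, since its annotated exons share 296 bases with the antisense gene Gm17494 and 244 with Gm6061 on the same strand.

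The proportion of the subunit transcripts was also compared. The ratio of Gclc to Gclm, both in CPM per kb and so free of the scaling between libraries, was 2.35, 2.23 and 2.5 in the L-TBA libraries and 1.46, 1.18, 1.39 and 1.66 in the H-TBA libraries. Every H-TBA ratio lay under every L-TBA ratio. The mean log2 ratio was 0.74 lower in H-TBA, with p = 0.0571 by an exact two-sided permutation test, the smallest p that 4 against 3 libraries allow. It was one of 7 ratios chosen after their values had been seen (adjusted p = 0.1).

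Slc7a11 (ENSMUSG00000027737), the cystine-importing chain of the exchanger that brings in cystine for glutathione, was a rare transcript in these livers. It had 14, 15 and 10 counts in the L-TBA libraries and 62, 52, 27 and 59 counts in the H-TBA libraries, or 1.21, 1.35 and 1 CPM against 5.79, 5.08, 2.2 and 4.77 CPM. H-TBA 3 was the lowest H-TBA library and still lay above L-TBA. The log2 fold change of 1.89 ± 0.35 (adjusted p = 0.00302; range over the alternatives 2.16e-05 to 0.0143) was the largest of the 10 genes and had the largest SE. Slc3a2, which encodes the partner chain of several amino acid exchangers, did not pass the test, at -0.21 ± 0.10 (adjusted p = 0.132).

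Other genes that supply or break down glutathione moved both ways, with 5 of 15 higher and 2 lower, against 13.1% and 10.7% of all tested genes. Their median log2 fold change was 0.02. Cth, the enzyme that releases cysteine from cystathionine, went up from 250 ± 53.4 to 718 ± 104 CPM (1.52 ± 0.16 on the log2 scale, adjusted p = 0.000195). Cbs, the enzyme before it in that route, rose by 0.58 ± 0.10. Ggt1, a gamma-glutamyl transferase that opens glutathione breakdown outside the cell, rose from 0.391 ± 0.185 to 2.41 ± 0.773 CPM on 7, 3 and 3 counts in L-TBA, and Dpep1, a dipeptidase that can finish it, rose by 1.41 ± 0.21. The other called genes, named after their values had been seen, were Ggt6 (0.43 ± 0.09), a further member of the transferase family, and, lower, the glutathione-degrading Chac1 (-0.94 ± 0.18) and the aminopeptidase Anpep (-0.43 ± 0.10). Gss, the enzyme of the last step of synthesis, was at -0.15 ± 0.08 and Oplah, which recycles oxoproline, at 0.02 ± 0.09, and neither passed. Only 1 gene of this list was lower once L-TBA replicate 1 was left out, and likewise with library totals.

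**Figure D2:**
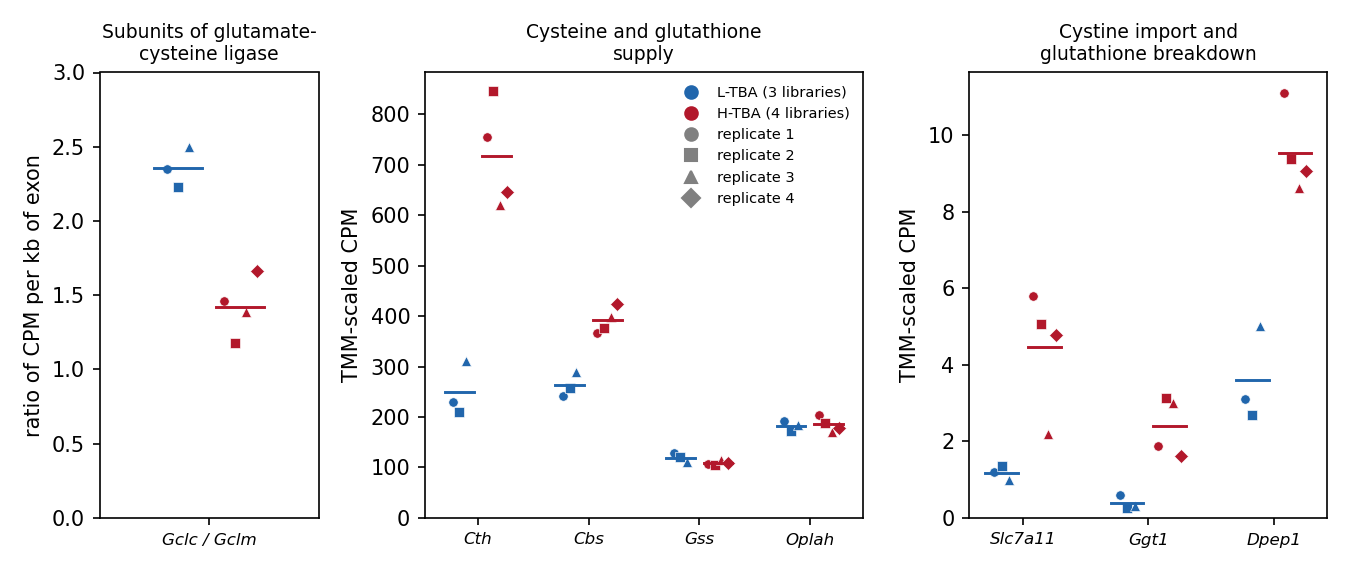
Left, the ratio of Gclc to Gclm in CPM per kb of exon; centre and right, TMM-scaled CPM of genes of cysteine and glutathione supply and of cystine import and glutathione breakdown; points are libraries (blue L-TBA, red H-TBA, shape by replicate) and bars are group means. The Gclc to Gclm ratio is 2.23 to 2.5 in L-TBA and 1.18 to 1.66 in H-TBA, whereas Slc7a11, Cth, Cbs, Ggt1 and Dpep1 are higher in all H-TBA libraries.

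The reductases changed little. Gsr (ENSMUSG00000031584), glutathione reductase, was at 91.9, 100.3 and 98.9 CPM in L-TBA and at 103, 99.1, 93.7 and 100.2 CPM in H-TBA. The libraries were interleaved, and the log2 fold change of 0.03 ± 0.08 did not pass (adjusted p = 0.817). Txnrd1 (ENSMUSG00000020250), the cytosolic thioredoxin reductase, was at 182, 176 and 172 CPM in L-TBA and at 169, 131, 133 and 154 CPM in H-TBA. The groups did not overlap, but H-TBA 1 came close to L-TBA, and the log2 fold change of -0.27 ± 0.10 missed the threshold (adjusted p = 0.0784). Without H-TBA replicate 1 it passed at -0.34 (adjusted p = 0.0145), and with limma-voom it passed at -0.29 (adjusted p = 0.027), while the highest adjusted p among the alternatives was 0.379.

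Srxn1 (ENSMUSG00000032802), sulfiredoxin, repairs overoxidised peroxiredoxins. It stood at 144, 147 and 117 CPM in L-TBA and at 118, 94.6, 99.7 and 114 CPM in H-TBA, so that the groups overlapped where L-TBA 3 met H-TBA 1. Its mean fell from 136 ± 16.6 to 106 ± 11.2 CPM, or by 0.35 ± 0.11 on the log2 scale (adjusted p = 0.0378). Leaving out H-TBA 2, 3 or 4 ended the call (adjusted p = 0.102, 0.0874 and 0.0594), as did leaving out L-TBA 1 or 2 (0.131 and 0.136). Library totals ended it too (adjusted p = 0.213, the highest over the alternatives, where the lowest was 0.0157).

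Around these enzymes, 1 of 11 other thioredoxin and peroxiredoxin genes rose and 2 fell (median log2 fold change -0.06). This is near the 23.9% called among all tested genes. Txn1, the cytosolic thioredoxin that Txnrd1 reduces, dropped from 229 ± 6.05 to 143 ± 14.6 CPM (-0.68 ± 0.09, adjusted p = 0.000681), and Txnip, which encodes a thioredoxin-binding protein, rose from 157 ± 15.8 to 311 ± 68.2 CPM. Prdx3, a mitochondrial peroxiredoxin, fell by 0.35 ± 0.08, a call lost without L-TBA replicate 1 (adjusted p = 0.0549; range 0.00122 to 0.0811). Without H-TBA replicate 1, and with limma-voom, 4 of the 11 fell. Library totals gave 2 higher and 1 lower, and 1 fell when L-TBA replicate 1 was left out.

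G6pdx (ENSMUSG00000031400), glucose-6-phosphate dehydrogenase, opens the pentose phosphate pathway and yields NADPH. It was low in these livers, at 7, 8.53 and 10.4 CPM in L-TBA and 7.57, 10.1, 12.7 and 13 CPM in H-TBA. The groups overlapped, with H-TBA 1 near the lowest L-TBA library, and the log2 fold change of 0.34 ± 0.21 did not pass (adjusted p = 0.265). Its exons share 418 bases with Ikbkg on the opposite strand, so these counts are uncertain. Of 9 other pentose phosphate and NADPH genes, 0 rose and 5 fell (median log2 fold change -0.36), against 13.1% and 10.7% of all tested genes. Transaldolase (Taldo1) fell by 0.50 ± 0.09, transketolase (Tkt) by 0.36 ± 0.08, malic enzyme (Me1) by 0.42 ± 0.10 and hexose-6-phosphate dehydrogenase (H6pd) by 0.36 ± 0.09, and isocitrate dehydrogenase (Idh1), named after its value had been seen, by 0.40 ± 0.11. Without L-TBA replicate 1, 2 of the 9 fell, since Me1 and H6pd were among the calls lost (adjusted p = 0.0553 and 0.0627), and library totals left 3.

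Nqo1 (ENSMUSG00000003849), a quinone reductase and the usual readout of NRF2, was low, at 14.9, 14.6 and 14 CPM in L-TBA and 21.3, 16.2, 17.6 and 20.4 CPM in H-TBA. H-TBA 1 and 4 were the highest, and H-TBA 2 was only slightly above L-TBA. Its mean rose from 14.5 ± 0.431 to 18.9 ± 2.36 CPM, or by 0.38 ± 0.12 on the log2 scale (adjusted p = 0.036). Leaving out H-TBA 1 or 4 ended the call (adjusted p = 0.06 and 0.0944), as did leaving out any L-TBA library (0.0861, 0.0882 and 0.112 for L-TBA 1 to 3). DESeq2 did not call it (adjusted p = 0.0539), and the adjusted p lay between 0.0105 and 0.145 over the alternatives.

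Cbr3 (ENSMUSG00000022947), a carbonyl reductase, gave the most even rise. It stood at 7.17, 7 and 6.31 CPM in L-TBA and at 13.9, 13.8, 12.2 and 13 CPM in H-TBA, with a wide gap between the groups and little spread inside them. Its mean rose from 6.83 ± 0.455 to 13.2 ± 0.792 CPM, or by 0.95 ± 0.13 on the log2 scale (adjusted p = 0.000562; range over the alternatives 8.42e-07 to 0.0105). Its neighbour in sequence and function Cbr1, the more abundant carbonyl reductase, was at 86.1 ± 7.43 and 102 ± 19.7 CPM and did not pass (0.24 ± 0.13, adjusted p = 0.221). As the pair are similar in sequence, reads may have been shared between them. The Cbr3 to Cbr1 ratio per kb was 0.188, 0.159 and 0.141 in L-TBA and 0.218, 0.312, 0.286 and 0.264 in H-TBA, with no overlap (p = 0.0571 by the exact two-sided permutation test, adjusted p = 0.1 over the 7 ratios).

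Hmox1 (ENSMUSG00000005413), heme oxygenase, splits heme into biliverdin, iron and carbon monoxide, and in liver it is strong in Kupffer cells, the resident macrophages. It stood at 44.7, 43.6 and 59.8 CPM in L-TBA and at 26.9, 23.0, 30.3 and 34.6 CPM in H-TBA. L-TBA 3 was the highest library, and the groups did not overlap. Its mean fell from 49.4 ± 9.06 to 28.7 ± 4.95 CPM, or by 0.78 ± 0.15 on the log2 scale (adjusted p = 0.00322; range over the alternatives 3.59e-05 to 0.0168). Hmox2, the constitutive heme oxygenase, was at 51.0 ± 1.69 and 48.9 ± 2.95 CPM (-0.06 ± 0.08, adjusted p = 0.598).

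Some markers of Kupffer cells and macrophages were lower in H-TBA, as Hmox1 was. Of 11 such markers 3 fell and 0 rose, where 10.7% of all tested genes fell and 13.1% rose. None was at zero in any library, and the sum of the 11 was 774 to 1088 CPM in L-TBA and 559.7 to 673 CPM in H-TBA. The 3 were Adgre1, a general macrophage receptor, Clec4f and Cd5l. Clec4f, a Kupffer cell receptor, went from 74.1 ± 37.5 to 25.5 ± 5.85 CPM and Cd5l, a secreted macrophage protein, from 249 ± 51.4 to 97.1 ± 22.7 CPM. L-TBA 3 was highest for the marker sum as well as for Hmox1. The macrophage-wide gene Lyz2 was at 274 ± 56.9 and 254 ± 19.1 CPM with overlapping groups. The 8 markers that did not pass lay between -2.35 (Timd4) and 0.16 (Trem2) on the log2 scale. The ratio of Hmox1 to Clec4f per kb was 1.03 ± 0.271 in L-TBA and 1.69 ± 0.625 in H-TBA (exact permutation p = 0.171, adjusted p = 0.2 over the 7 ratios). That of Hmox1 to Cd5l was 0.232 ± 0.0249 and 0.359 ± 0.111 (exact permutation p = 0.114, adjusted p = 0.16 over the 7 ratios). Both ratios overlapped between the groups. Clec4f (log2 fold change -1.54) and Cd5l (-1.36) are among the 3 markers that fell, and both fell by more than Hmox1. The direction of these ratios thus follows from the choice of marker, and no ratio to a marker that did not pass, such as Lyz2, was taken. The part of these cells in the fall of Hmox1 was not tested, and in whole liver fewer cells of a type and less RNA per cell cannot be told apart. Without L-TBA replicate 3, Hmox1 remained called.

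**Figure D3:**
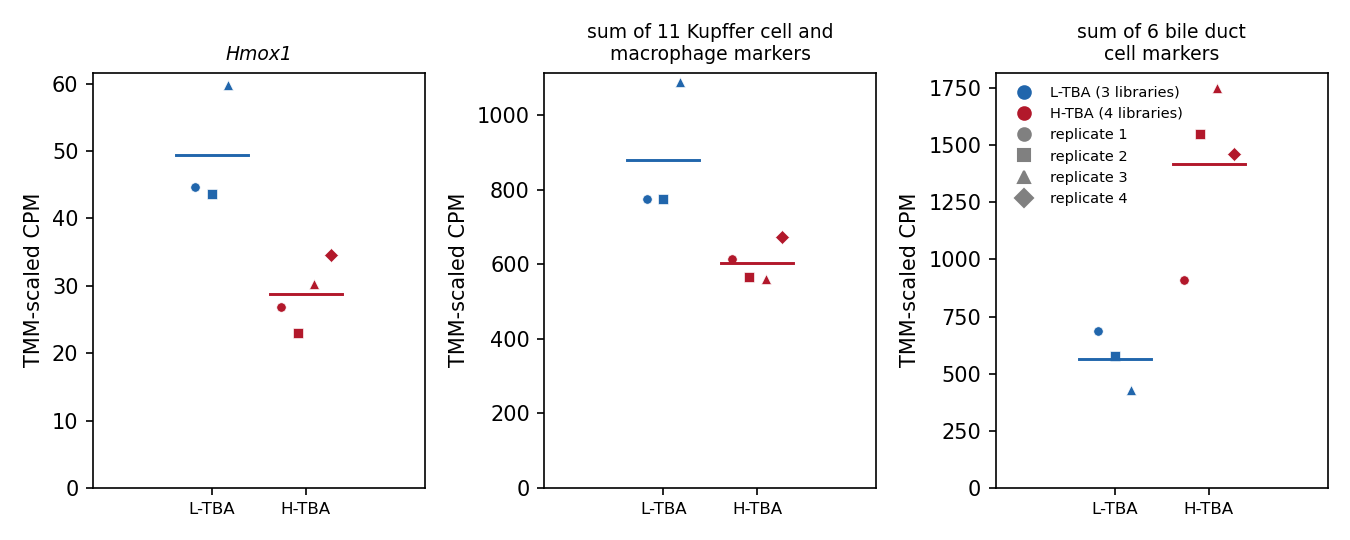
TMM-scaled CPM of Hmox1 (left) and summed CPM of 11 Kupffer cell and macrophage markers (centre) and 6 bile duct cell markers (right) in each library; blue points are L-TBA, red points H-TBA, shape gives the replicate and bars are group means. Hmox1 and the macrophage sum are lower in all H-TBA libraries and highest in L-TBA 3, and the duct sum is 429.5 to 687 CPM in L-TBA and 909 to 1752 CPM in H-TBA.

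Beyond Hmox1, 3 of 9 tested heme and iron genes fell and 0 rose (median log2 fold change -0.28), against 10.7% and 13.1% of all tested genes. The 3 calls were weak. Biliverdin reductase B (Blvrb) was at -0.28 ± 0.08, the ferritin light chain (Ftl1) at -0.32 ± 0.10 and haptoglobin (Hp), a plasma protein that binds haemoglobin, at -0.54 ± 0.17. In this list 0 genes fell when H-TBA 2 or 4 or L-TBA 1 or 2 was left out, and 1 fell when H-TBA 3 or L-TBA 3 was left out. With library totals 0 fell and 1 rose. Cd163, a macrophage receptor for haemoglobin, had too few counts to be tested.

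Markers of bile duct cells and of periportal hepatocytes differed between the groups in the direction of the genes that rose. All 6 duct markers (Krt19, Krt7, Epcam, Sox9, Spp1 and Cftr) were higher in H-TBA, and their sum was 429.5 to 687 CPM in L-TBA and 909 to 1752 CPM in H-TBA. Of 6 periportal markers 5 (Sds, Hal, Gls2, Pck1 and Ass1) were higher and 0 lower, with a sum of 2963 to 4449.8 CPM in L-TBA and 6567 to 8965 CPM in H-TBA. Slc7a11, Nqo1 and Cbr3 were highest in H-TBA 1 (5.79, 21.3 and 13.9 CPM), the H-TBA library that lay apart on the first principal component. Its duct sum was the lowest of that group (909 CPM) and its periportal sum the highest (8965 CPM). Nqo1 was lowest in H-TBA 2 (16.2 CPM), whereas Slc7a11, Cbr3 and the periportal sum were lowest in H-TBA 3 (2.2, 12.2 and 6567 CPM). The order within H-TBA was not tested, and no source of the rise is read from it. Markers of pericentral hepatocytes and of endothelium differed between the groups in the direction of the genes that fell. Of 9 pericentral markers 5 (Glul, Cyp2e1, Oat, Slc1a2 and Rgn) were lower and 0 higher, with a sum of 10278 to 11645 CPM in L-TBA and 3698 to 6624 CPM in H-TBA. Of 8 endothelial markers 4 (Stab2, Lyve1, Clec4g and Fcgr2b) were lower and 0 higher, with a sum of 253 to 304 CPM in L-TBA and 205 to 234 CPM in H-TBA. Across all tested genes 13.1% were higher and 10.7% lower. In each of these 4 lists the sums of the groups did not overlap, and the part of these cells and of zonation in the results was not tested.

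The genes listed as regulators of NRF2, which include its relatives Nfe2l1 and Nfe2l3, showed mostly small differences. Nfe2l3 had the largest, and Bach2 followed. Nfe2l2 itself was at 124, 136 and 125 CPM in L-TBA and at 99.3, 99.1, 117 and 122 CPM in H-TBA. All H-TBA libraries lay lower, H-TBA 3 and 4 only just, and the log2 fold change of -0.23 ± 0.10 did not pass (adjusted p = 0.115). Keap1 was at -0.20 ± 0.08 (adjusted p = 0.0936), and it passed without H-TBA replicate 1 at -0.24 (adjusted p = 0.0404; range 0.0404 to 0.693). The ratio of Nfe2l2 to Keap1 per kb was 2.46 ± 0.176 in L-TBA and 2.42 ± 0.354 in H-TBA (exact permutation p = 0.914). Cul3 and Rbx1, the ligase that KEAP1 joins, were at -0.05 ± 0.08 and -0.03 ± 0.07, the repressor Bach1 at -0.18 ± 0.15, and the small MAF genes Maff, Mafg and Mafk at 0.07 ± 0.22, 0.13 ± 0.11 and 0.10 ± 0.10, none past the threshold. Bach2, a relative of Bach1 known from lymphocytes, was at -0.53 ± 0.19 (adjusted p = 0.0671) and passed without H-TBA replicate 1 (adjusted p = 0.0264).

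Of the 12 regulators 1 rose and 2 fell (median log2 fold change -0.11), which is near the 23.9% called among all tested genes. Sqstm1, the autophagy adaptor p62 that captures KEAP1 and is itself an NRF2 target, passed at -0.31 ± 0.10 (adjusted p = 0.0392), from 744 ± 54.4 to 602 ± 26.8 CPM. Nfe2l1, a related factor known for proteasome genes, passed at -0.28 ± 0.08 (adjusted p = 0.0266). The call of Sqstm1 was lost without any 1 library except H-TBA 1 (adjusted p from 0.0679 to 0.157), and that of Nfe2l1 when H-TBA 2, H-TBA 3 or any L-TBA library was left out (adjusted p from 0.0537 to 0.113). Leaving out any of those 5 libraries thus left 0 regulators lower, leaving out H-TBA 4 left 1, and leaving out H-TBA 1 gave 4. With library totals 1 regulator was higher and 0 lower (median 0.04), with Sqstm1 at -0.15 (adjusted p = 0.225) and Nfe2l1 at -0.13 (adjusted p = 0.268). Nfe2l3, a further relative of NRF2, had 10, 1 and 4 counts in L-TBA and 26, 68, 94 and 84 in H-TBA. It rose by 3.66 ± 0.54 on the log2 scale (adjusted p = 0.000919; range over the alternatives 3.28e-10 to 0.0143).

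**Figure D4:**
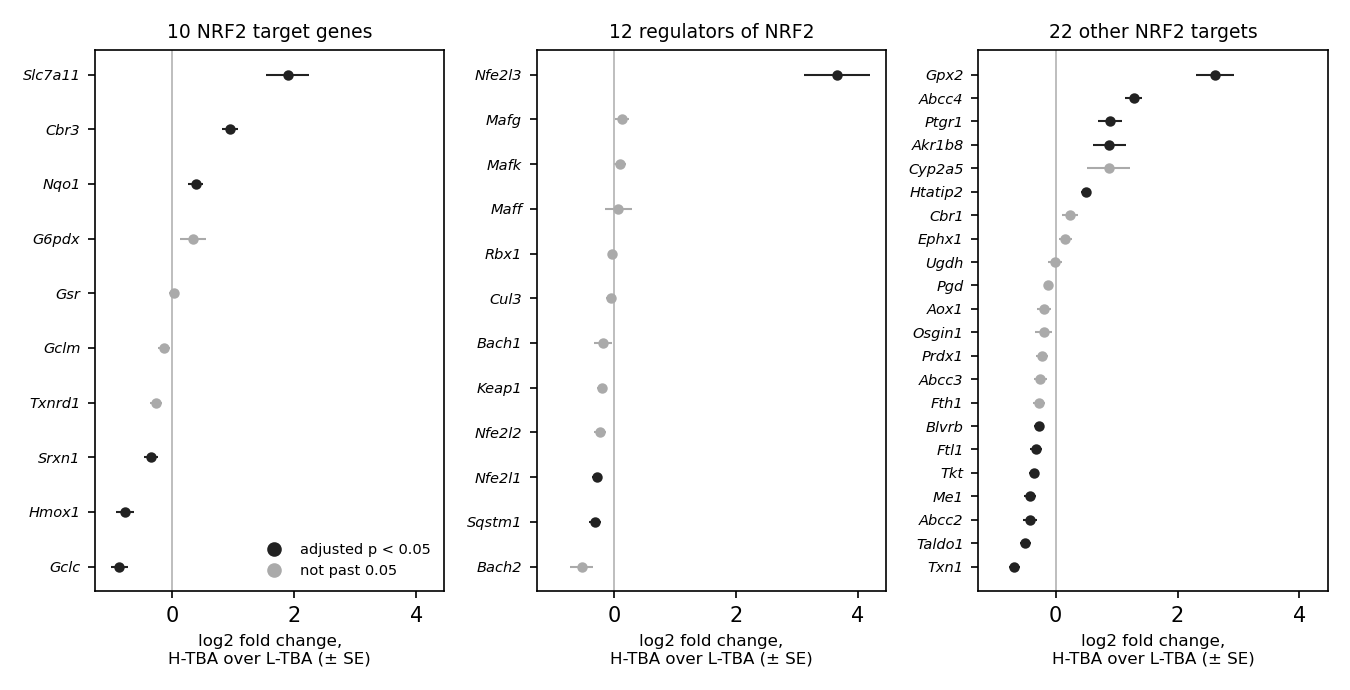
Log2 fold change of H-TBA over L-TBA (horizontal axis, points, with SE as bars) for the 10 NRF2 targets, 12 regulators of NRF2 and 22 other NRF2 targets; black points passed an adjusted p of 0.05 by edgeR and grey points did not. Each panel has genes on both sides of zero, and Nfe2l3 is the only regulator above 0.13.

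A wider list of 22 other NRF2 targets was split in the same manner, with 5 higher and 7 lower, against 13.1% and 10.7% of all tested genes. Its median log2 fold change was -0.20. Abcc4, an exporter of organic anions to the blood, rose by 1.28 ± 0.14 (adjusted p = 0.000241). Gpx2, a glutathione peroxidase of epithelia, rose from 0.601 ± 0.238 to 3.81 ± 0.62 CPM on 10, 6 and 4 counts in L-TBA, and Htatip2 from 47.2 ± 3.44 to 66.4 ± 4.21 CPM. The remaining genes that rose, named after their values had been seen, were Ptgr1, a reductase of leukotrienes and alkenals, and the aldo-keto reductase Akr1b8. Txn1, Taldo1, Tkt and Me1 were among the 7 that fell. The lists share genes, and these 4, with Blvrb and Ftl1, were already counted as lower in the lists above. The remaining gene that fell, named after its value had been seen, was Abcc2 (-0.42 ± 0.12, adjusted p = 0.0256). Abcc3 lay lower in all H-TBA libraries but did not pass (-0.25 ± 0.10, adjusted p = 0.0959). Leaving out H-TBA 2 or 3 or L-TBA 2 or 3 gave 4 that fell, leaving out L-TBA 1 gave 3, and 8 higher and 3 lower were called with library totals.

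Among 10 glutathione transferases, which are further NRF2 targets with near-identical copies and so uncertain counts, 4 rose and 2 fell (median log2 fold change 0.24). Across all tested genes 13.1% rose and 10.7% fell. Gsta2, Gstm3, Gsta1 and Gsta4 rose by 1.56 ± 0.15, 1 ± 0.13, 0.94 ± 0.14 and 0.42 ± 0.10. Gsta3 (-0.74 ± 0.18) and the microsomal Mgst1 (-0.44 ± 0.13), named after their values had been seen, were lower. Leaving out H-TBA 2, 3 or 4 or L-TBA 1 or 3 gave 1 that fell. Slc7a11 and Chac1, a glutathione-degrading enzyme, are also targets of the amino acid stress factor ATF4. Of 8 genes of the ATF4 response, Ddit4 rose by 0.95 ± 0.11 and Atf3 and Chac1 fell by 0.77 ± 0.15 and 0.94 ± 0.18. The other 5 did not pass, Atf4 among them at -0.23 ± 0.08 (adjusted p = 0.0585). Across all tested genes 23.9% were called. Without H-TBA replicate 2 the number higher was 2.

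The 10 genes could also be compared by their profiles, as the Euclidean distance between centred log2 CPM over the 7 libraries. Profiles were not scaled, so the distance largely reflects how far the fold changes given above differ. The nearest pairs were Gclm with Txnrd1 (0.241) and Txnrd1 with Srxn1 (0.252), and the farthest were Slc7a11 with Hmox1 (3.52) and with Gclc (3.50). Gclc lay nearest to Hmox1 (0.558) and farther from its partner gene Gclm (1.03). The tested genes outside the list with profiles nearest to Nqo1 were Fbxl12 (0.155), Capn10 (0.184), Neo1 (0.194), Tm2d3 (0.201) and Tmub1 (0.213). All 5 had positive log2 fold changes, between 0.28 and 0.37, and Capn10 (adjusted p = 0.0312) and Neo1 (adjusted p = 0.0126) passed the test. As the 5 were picked for nearness to Nqo1 in the same libraries, such fold changes follow from the choice and are no separate result. These distances describe 7 libraries that share 2 groups.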

How the data were processed

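Liver RNA was measured in 7 libraries. The deposited file holds raw gene counts, made by the authors from reads and not normalized. CASAVA, TopHat2 2.0.11, DESeq2 1.18.1 and mm9 are listed, with no roles, per the submitters' processing notes. The sources used here do not name the counting tool, strand setting or annotation, so overlapping and near-identical genes may share counts. Symbols came from a GENCODE table (32897 of 37620 identifiers matched) and exon lengths from its models, which are of another build, so only promoter windows carry coordinates.

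Genes were filtered with filterByExpr (minimum count 10, minimum total 15), which left 15249. The groups were tested in edgeR 4.0.16 (R 4.3.3) with a quasi-likelihood fit, TMM scaling and no covariate, and p-values were adjusted by Benjamini-Hochberg over all tested genes. Each adjusted p of a gene is from this test unless another is named.

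The members and lists were chosen with earlier results of these data known. Named genes were all members and regulators, up to 4 called genes per other list by adjusted p, and the 5 profiles nearest to Nqo1; further names are marked in the text. The hepatocyte list had 1 of 6 symbols unmatched (Tf). A further marker is not reported here and is in no marker sum. Alternatives were DESeq2 1.42.0, limma-voom (limma 3.58.1), size factors of DESeq2, library totals, omitting or tightening the filter, robust dispersion, a block on replicate number, and each library left out. An offset for gene length was added after the data had been seen. Within groups, libraries differed beyond sampling noise (smallest chi-square per degree of freedom 5.29).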

Additional observations from a re-analysis of the deposited data

Results flagged for a closer look

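Keap1 in H-TBA 1, at 60.9 CPM, stood apart from the other 3 H-TBA libraries, of which the next was at 55 CPM: the gap made up 0.886 of the range of the 4 libraries, above Dixon's 95% critical value for 4 values. It was 1 such case among 46 named genes, and chance gives about 1 in 20.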

How the results depend on the processing

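Between 2 and 3 of the NRF2 targets were higher and between 2 and 4 lower under each alternative, and the differences all came from Nqo1, Srxn1 and Txnrd1. With library totals the median of all genes moved from 0.00 to 0.16, and calls over all genes went from 2003 higher and 1635 lower to 3117 and 832. Under that scaling, without removing the shift, Gclm turned to 0.01, Cul3 to 0.11 and Rbx1 to 0.13. Leaving out 1 library gave 2574 to 4552 calls over all genes, 1470 to 2429 higher and 1035 to 2123 lower, the fewest lower without L-TBA replicate 1. Other signs that turned were those of genes that did not pass. Over the fits that left out 1 library, Gsr lay between -0.01 and 0.06, Cul3 between -0.08 and 0.00, Mafk between -0.01 and 0.18, and Maff between -0.07 and 0.36, with -0.04 when L-TBA 2 was left out. With the replicate number as a block (replicates 1 to 3), 1873 genes were called, 1124 higher and 749 lower, against 2617 in the same libraries without it, and 2 NRF2 targets were higher and 2 lower. The numbers share no source in the labels, deviations of same-numbered libraries correlated at -0.10, -0.06 and -0.06, and 0 of 3 numbers correlated best with its own number. Slc7a11, Nfe2l3, Ggt1 and Gpx2 are limited by depth, with 10 counts or fewer in at least 1 library, and Ggt1 had no value under the stricter filter.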
